A study of Mus musculus with 24 samples.

Results

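The genes of cholesterol and fatty acid synthesis were followed in mouse lung under ozone. They were taken from a list of 40 genes grouped by role in the pathways: 18 enzymes of sterol synthesis, 9 enzymes that make or modify fatty acids, 5 regulators of the SREBP system, and 8 genes of oxysterol sensing, efflux, esterification, transport and uptake. Of the 40, 36 had a probe set annotated to them alone on the array and are described here, out of 11597 genes read that way. Acat2, Insig1, Nr1h2 and Soat1 had none and are not analysed here. Where a gene had several probe sets, the one with the highest mean was used.

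Whole-lung RNA of male mice, 6 to 8 weeks old, was measured on 24 arrays, 3 to a group. Each array is taken here as the lung of 1 mouse, though the methods do not state whether RNA was pooled. Tnfr-/- mice (B6.129S, Tnfrsf1a and Tnfrsf1b both disrupted in every cell) and Tnfr+/+ mice (C57BL/6J) breathed filtered air or 0.3 ppm O3 without a break for 24, 48 or 72 h. Each genotype had 1 air group, which served as the control at all 3 times, so the 3 comparisons with air share their air lungs. The labels do not say how long the air mice were held, and filtered air was given in a separate chamber. Effects of chamber and of time held cannot be told apart from those of O3. The 2 lines were bought as separate stocks, so receptor loss and other differences between the stocks cannot be told apart.

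Cholesterol is built from acetyl-CoA, first along the mevalonate steps to farnesyl pyrophosphate and then from squalene through lanosterol to cholesterol. When membrane sterol is low, SCAP escorts the transcription factor SREBP-2 from the endoplasmic reticulum to the Golgi, where it is cut free to switch on the enzymes of this route, and INSIG proteins hold it back when sterol is plentiful. SREBP-1c favours fatty acid enzymes instead, and the sterol-sensing receptors LXRα and LXRβ switch on the cholesterol exporters ABCA1 and ABCG1. In the lung, type 2 cells of the alveolus make the lipid of surfactant, and alveolar macrophages take surfactant lipid up and export its cholesterol.

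The tissue label was checked against alveolar type 2 markers, 9 of 10 of which were measured: their summed normalized intensity was 126794 to 145326 in every array and none of the 9 passed the test after O3 in the mean of the genotypes. Sftpc, at 28353 to 32126, lay among the top values that quantile normalization sets alike in every array. The narrow range of the sum is therefore no measure of the number of type 2 cells. One of the 2 probe sets of Tnfrsf1b was lower in Tnfr-/- lungs in air (log2 fold change -0.98, adjusted p = 0.018) and after 24, 48 and 72 h of O3 (-0.72, -1.04 and -1.17, adjusted p = 0.041, 0.0084 and 0.0032), whereas its other probe set and that of Tnfrsf1a did not pass in any of these groups. In the mean of the 4 exposures the Tnfrsf1a probe set was lower (-0.41, adjusted p = 0.037), and the other Tnfrsf1b probe set did not pass (-0.14, adjusted p = 0.62). Whether these probe sets read the parts that were disrupted could not be established, and the genotype labels are therefore not tested by them. A pair of Tnfr+/+ arrays stood apart. O3 72 h replicate 1 had a mean correlation of 0.909 with the others, against 0.933 to 0.947, and a Gapdh 3'/5' ratio of 4.45, against 0.89 to 1.74. O3 48 h replicate 2 held a summed intensity of 16347 for 8 adipose markers, against 995 to 4415 in the other 23 arrays. In lung homogenate, fewer cells of a type and less RNA per cell cannot be told apart.

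The start regions of the sterol enzymes are shown because several of these genes moved together. RefSeq windows of 300 bases (250 before and 50 after a start site, GRCm38.p6) were found for 32 of the 40 genes, 42 windows in all. They were searched on both strands for TCACNCCAC, a core of the sterol regulatory element that SREBPs bind, and for CCAAT, the box bound by NF-Y, a factor that works beside SREBPs at sterol genes. Neither motif contains the other. CCAAT was held by 14 of the 18 windows of sterol enzymes (77.8%), 3 of the 6 of fatty acid enzymes and 2 of the 8 of the oxysterol, efflux and uptake genes, and by 37.4% of all 32851 windows. TCACNCCAC was held by 1 member window, that of Hmgcs1, and by 1.24% of all windows. Among the sterol enzymes that passed the test at 24 and 48 h of O3 in Tnfr-/- lungs, Sqle had no window. The Sc5d window, with 1 CCAAT box, is not printed. The 4 windows printed here belong to the others, with matches in capitals (ATTGG is CCAAT on the other strand). They are Hmgcs1 (chr13:119690101-119690400, plus strand), Idi1 (chr13:8885356-8885655, plus strand), Lss (chr10:76531355-76531654, plus strand) and Cyp51 (chr5:4104648-4104947, minus strand).
Hmgcs1: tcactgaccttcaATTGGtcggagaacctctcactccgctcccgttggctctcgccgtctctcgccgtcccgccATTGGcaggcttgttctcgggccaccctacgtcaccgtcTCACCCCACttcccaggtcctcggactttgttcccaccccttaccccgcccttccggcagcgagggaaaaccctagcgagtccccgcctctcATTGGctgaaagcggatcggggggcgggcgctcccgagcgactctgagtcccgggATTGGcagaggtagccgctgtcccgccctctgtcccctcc
Idi1: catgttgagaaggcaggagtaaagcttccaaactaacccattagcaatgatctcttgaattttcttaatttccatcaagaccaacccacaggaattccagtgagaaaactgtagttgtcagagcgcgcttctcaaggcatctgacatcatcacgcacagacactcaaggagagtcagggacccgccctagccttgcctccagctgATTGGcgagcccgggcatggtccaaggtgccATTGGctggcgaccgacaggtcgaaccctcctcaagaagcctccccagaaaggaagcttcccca
Lss: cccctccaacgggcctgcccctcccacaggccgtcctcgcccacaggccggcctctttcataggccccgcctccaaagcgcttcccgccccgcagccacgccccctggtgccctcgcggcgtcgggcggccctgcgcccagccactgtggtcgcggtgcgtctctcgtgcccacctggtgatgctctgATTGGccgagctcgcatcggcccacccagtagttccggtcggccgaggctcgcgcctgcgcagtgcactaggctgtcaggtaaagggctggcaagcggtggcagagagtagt
Cyp51: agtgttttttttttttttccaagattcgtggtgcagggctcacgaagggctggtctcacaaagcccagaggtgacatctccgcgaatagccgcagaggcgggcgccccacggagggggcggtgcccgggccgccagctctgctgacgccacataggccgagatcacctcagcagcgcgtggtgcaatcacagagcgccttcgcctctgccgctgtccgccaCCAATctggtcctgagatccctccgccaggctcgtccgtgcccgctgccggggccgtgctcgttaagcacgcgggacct
Hmgcs1 carried TCACNCCAC with its first base at -137 from the start site, and 4 CCAAT boxes. Idi1 carried 2 boxes, and Lss and Cyp51 1 each. The windows of Ch25h and Abca1 held neither motif. A match describes these letters and is not a site of binding.

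Hmgcs1, Idi1, Sqle, Lss and Cyp51 of the sterol route passed the test upward after 24 h of O3 in the mean of both genotypes, and Ch25h did so at all 3 times. Fdps, Mvk, Tm7sf2 and Ebp of the same route passed in no comparison with air. For Fdps every Tnfr-/- lung in O3 lay above those in air, and 1 outlying Tnfr+/+ value entered its shared standard error. The words rose and fell are used where the p-value, adjusted over all 20537 probe sets tested, was under 0.05. In Tnfr-/- lungs 7 of the 36 members rose and 2 fell after 24 h of O3, when 0.726% of all probe sets rose and 0.375% fell. After 48 h 10 rose and 3 fell (2.60% and 1.24% of all), and after 72 h 6 rose and 2 fell (2.60% and 1.36%). In Tnfr+/+ lungs 1 rose and 0 fell after 24 h (0.0682% and 0.0146% of all probe sets), 4 rose and 0 fell after 48 h (0.901% and 0.273%), and 3 rose and 1 fell after 72 h (1.84% and 1.26%). In the mean of both genotypes, which has more arrays behind it, 6 members rose and 1 fell at 24 h (0.945% and 0.336% of all), 14 and 3 at 48 h (4.39% and 2.93%) and 11 and 4 at 72 h (5.63% and 5.05%).

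By route, the counts were as follows in the mean of the genotypes, with no test of one route against another. Of the 17 sterol enzymes measured, 5, 12 and 8 rose at 24, 48 and 72 h and 0 fell at any time, with median log2 fold changes of 0.47, 0.73 and 0.42. These counts take in Sc5d on its brighter probe set at 48 and 72 h, and those of Tnfr-/- lungs take it in at all 3 times, while its second probe set passed downward at 48 and 72 h in the mean of the genotypes. Of the 9 fatty acid enzymes, 0, 1 and 2 rose and 0 fell, with medians of 0.14, 0.18 and 0.01. The 4 regulators measured had medians of -0.01, -0.04 and 0.01, and the median over all probe sets tested was -0.01, -0.03 and -0.03. By genotype, 6, 9 and 5 sterol enzymes rose in Tnfr-/- lungs and 0, 2 and 2 in Tnfr+/+ lungs at the 3 times. Their median log2 fold changes were 0.72, 0.75 and 0.38 in Tnfr-/- lungs and 0.37, 0.49 and 0.40 in Tnfr+/+ lungs, and 15 or more of the 17 lay above 0 in each of the 6 comparisons. The share of all probe sets above 0 is not set beside this count. Calls from 1 genotype rest on 3 lungs a group and were less stable: with only the 6 lungs of a comparison in the fit, 1, 8 and 1 members passed in Tnfr-/- lungs and 0 in Tnfr+/+ lungs at any time. When each of the 24 lungs was left out in turn, the calls that held every time were 3 of 9, 7 of 13 and 2 of 8 in Tnfr-/- lungs, 0 of 1, 2 of 4 and 2 of 4 in Tnfr+/+ lungs, and 7 of 7, 12 of 17 and 10 of 15 in the mean of the genotypes. In the mean, those that did not hold were Pmvk, Mvd, Msmo1, Hsd17b7 and Abca1 at 48 h, and Mvd, Fasn, Scd1, Insig2 and Abca1 at 72 h. Cyp51 held in Tnfr-/- lungs at all 3 times and in Tnfr+/+ lungs at 48 and 72 h, and Lss at 48 and 72 h and Sqle at 24 and 48 h in Tnfr-/- lungs.

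**Figure D1:**
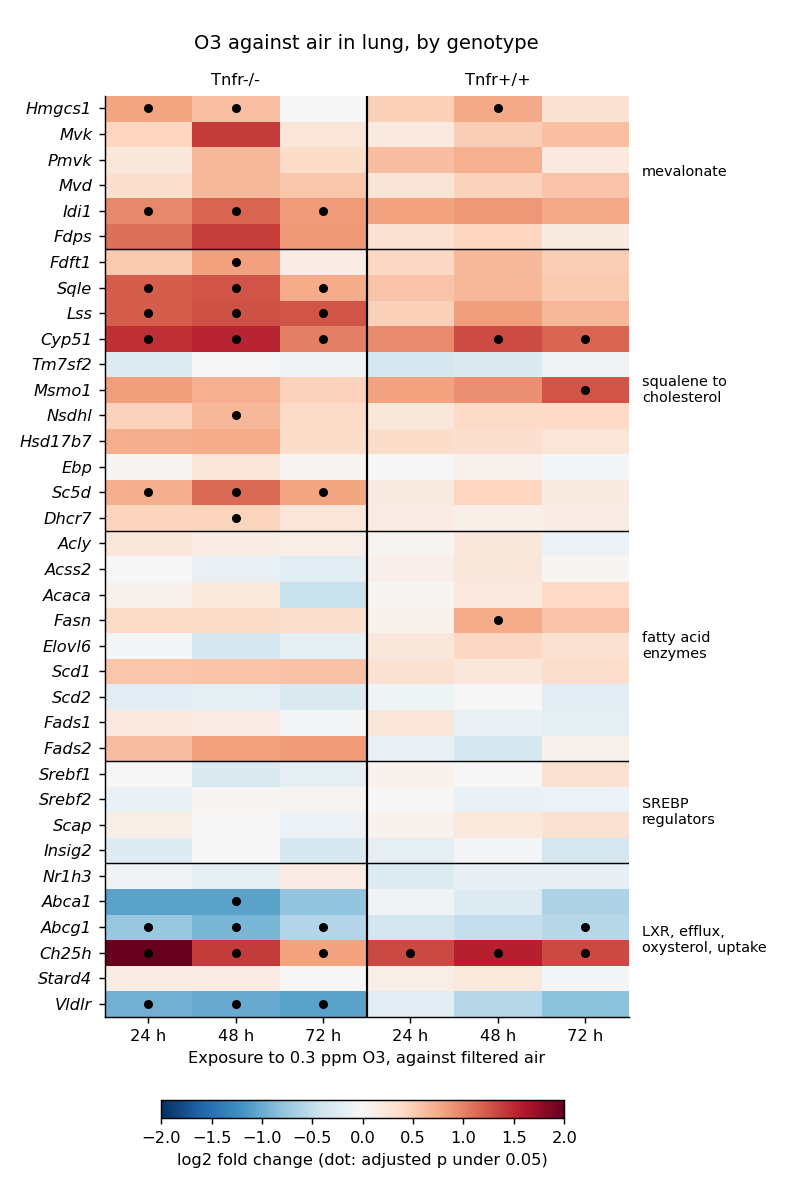
log2 fold change of O3 against air for the 36 members (rows, by role) after 24, 48 and 72 h in Tnfr-/- and Tnfr+/+ lungs (columns, 3 lungs in each group). Black dots mark an adjusted p under 0.05; the sterol rows are mostly red in both genotypes, with Cyp51 between 0.95 and 1.52, while the regulator rows lie between -0.33 and 0.30.

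Among the mevalonate enzymes, Hmgcs1 and Idi1 passed the test at 24 h. Hmgcs1 makes HMG-CoA, the precursor of mevalonate. Hmgcs1 was at 3336, 2856 and 2595 in air, 5207, 4589 and 5391 after 24 h, 4865, 4168 and 4323 after 48 h and 2778, 2882 and 3149 after 72 h in the 3 Tnfr-/- lungs of each group. Tnfr+/+ lungs were at 2276, 2449 and 2573 in air, 3135, 3846 and 3189 after 24 h, 3478, 3640.5 and 5544 after 48 h and 2646, 3143 and 3215 after 72 h. The O3 lungs of 24 and 48 h lay above all air lungs of their genotype, and those of 72 h overlapped the air lungs in Tnfr-/- mice. Against air, Hmgcs1 had log2 fold changes of 0.79, 0.61 and 0.01 in Tnfr-/- lungs (adjusted p = 0.015, 0.036 and 0.98) and 0.47, 0.76 and 0.30 in Tnfr+/+ lungs (adjusted p = 0.56, 0.018 and 0.33) at 24, 48 and 72 h, each with a standard error of 0.16. The 3 other probe sets of Hmgcs1 all passed upward at 48 h in the mean of the genotypes, and 1 of them at 24 h. That one passed at 72 h too (0.41, adjusted p = 0.022), where the probe set used did not (0.15, adjusted p = 0.44).

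Idi1 converts isopentenyl pyrophosphate to dimethylallyl pyrophosphate, the pair of units from which isoprenoids are joined. Idi1 was at 841, 636 and 518 in air, 1224, 1269 and 1306 after 24 h, 1868, 1335 and 1264 after 48 h and 1300.1, 1104 and 1119 after 72 h in the 3 Tnfr-/- lungs of each group. In Tnfr+/+ lungs the values were 659, 523 and 737 in air, 861, 1446 and 1092 after 24 h, 1369.7, 1075 and 1052 after 48 h and 1119, 858 and 1263 after 72 h. Every O3 lung lay above every air lung, in both genotypes and at all 3 times. Against air, Idi1 had log2 fold changes of 0.96, 1.17 and 0.84 in Tnfr-/- lungs (adjusted p = 0.035, 0.0038 and 0.033) and 0.81, 0.87 and 0.75 in Tnfr+/+ lungs (adjusted p = 0.33, 0.058 and 0.065) at 24, 48 and 72 h, each with a standard error of 0.22. In the mean of the genotypes its log2 fold changes were 0.88, 1.02 and 0.80 (adjusted p-values 0.0046, 0.00032 and 0.0021), and its second probe set passed upward at all 3 times too.

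Pmvk and Mvd, which phosphorylate and decarboxylate mevalonate on the way to isopentenyl pyrophosphate, passed only in the mean of the genotypes. Pmvk was at 323, 523 and 327 in air, 354, 468 and 539 after 24 h, 759, 445 and 637 after 48 h and 528, 514 and 437 after 72 h in the 3 Tnfr-/- lungs of each group. For Tnfr+/+ lungs they were 378, 542 and 329 in air, 593, 609 and 681 after 24 h, 533, 514 and 1071 after 48 h and 464, 418 and 518 after 72 h. The highest Pmvk value was that of Tnfr+/+ replicate 3 at 48 h. Pmvk had mean log2 fold changes of 0.43, 0.68 and 0.28 (adjusted p-values 0.39, 0.038 and 0.41). Mvd was at 212, 256 and 216 in air, 233, 350.1 and 282 after 24 h, 343, 398 and 333 after 48 h and 334, 355 and 309 after 72 h in the 3 Tnfr-/- lungs of each group. Values of 314, 248 and 217 in air, 297, 291 and 329.7 after 24 h, 349, 231 and 546 after 48 h and 330.4, 366 and 455 after 72 h were read in Tnfr+/+ lungs. Its highest value was in the same lung as that of Pmvk. Mvd had mean log2 fold changes of 0.29, 0.56 and 0.56 (adjusted p-values 0.54, 0.044 and 0.034).

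Fdps, which makes farnesyl pyrophosphate, did not pass in any comparison with air. Fdps was at 1016, 974 and 792 in air, 1955, 1991 and 2016 after 24 h, 2157, 2754 and 2314 after 48 h and 1453, 1999 and 1613 after 72 h in the 3 Tnfr-/- lungs of each group. The Tnfr+/+ lungs had 938, 988 and 869 in air, 1181, 1125 and 1150.3 after 24 h, 1494, 1244 and 1045 after 48 h and 368, 1938 and 1663 after 72 h. The Tnfr-/- lungs in O3 lay above those in air at every time. 1 Tnfr+/+ value at 72 h, 368 in the array with the high Gapdh ratio, was far below the other values, and the standard error shared by all groups was 0.38. That value is part of this error, and no fit of Fdps without that array is given. Its log2 fold changes were 1.11, 1.38 and 0.86 in Tnfr-/- lungs (adjusted p = 0.2, 0.052 and 0.26) and 0.31, 0.42 and 0.19 in Tnfr+/+ lungs (adjusted p = 1, 0.75 and 0.86). Mvk, mevalonate kinase, was dim, at 44.1 to 325 over the 24 lungs, and had mean log2 fold changes of 0.31, 0.94 and 0.42 (adjusted p-values 0.9, 0.37 and 0.72).

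In the squalene to cholesterol steps, Cyp51, the lanosterol 14α-demethylase, had the largest change against air of the 17 sterol enzymes at 24 and 48 h in both genotypes. Cyp51 was at 288, 151 and 210.3 in air, 577, 538 and 619 after 24 h, 654, 527 and 621 after 48 h and 473, 456 and 348 after 72 h in the 3 Tnfr-/- lungs of each group. Tnfr+/+ lungs were at 189, 227 and 206 in air, 364, 481 and 363 after 24 h, 550.4, 447 and 541 after 48 h and 416, 468 and 509 after 72 h. All O3 lungs were above all air lungs of both genotypes. Against air, Cyp51 had log2 fold changes of 1.47, 1.52 and 1.01 in Tnfr-/- lungs (adjusted p = 0.00042, 0.00013 and 0.0046) and 0.95, 1.30 and 1.16 in Tnfr+/+ lungs (adjusted p = 0.09, 0.0015 and 0.0023) at 24, 48 and 72 h, each with a standard error of 0.19. In the mean of the genotypes the fold changes were 1.21, 1.41 and 1.09 (adjusted p-values 8.9e-05, 3e-06 and 3.7e-05) on the log2 scale, or 2.31, 2.66 and 2.12 times air. Its 2 dimmer probe sets were also above 0 at every time, and 1 of them passed at 48 h (1.01, adjusted p = 0.0019) but neither at 24 or 72 h. With the mean over its 3 probe sets, Cyp51 did not pass at 24 or 72 h in Tnfr-/- lungs (0.93 and 0.98, adjusted p = 0.17 and 0.087), at 48 or 72 h in Tnfr+/+ lungs (0.83 and 0.86, adjusted p = 0.26 and 0.14), or at 24 h in the mean of the genotypes (0.73, adjusted p = 0.12).

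Sqle, squalene epoxidase, introduces the oxygen that begins ring closure. Sqle was at 672, 610.4 and 524 in air, 1401, 1220.1 and 1579 after 24 h, 1411, 1430.4 and 1465 after 48 h and 976, 1034 and 1007 after 72 h in the 3 Tnfr-/- lungs of each group. In Tnfr+/+ lungs the values were 544, 673 and 683 in air, 751, 1251 and 876 after 24 h, 963, 951 and 1067 after 48 h and 708, 861 and 1205 after 72 h. Each Tnfr-/- lung in O3 lay above each Tnfr-/- lung in air, and the same held in Tnfr+/+ lungs. Against air, Sqle had log2 fold changes of 1.22, 1.26 and 0.75 in Tnfr-/- lungs (adjusted p = 0.0026, 0.0006 and 0.03) and 0.57, 0.66 and 0.52 in Tnfr+/+ lungs (adjusted p = 0.53, 0.11 and 0.14) at 24, 48 and 72 h, each with a standard error of 0.19. Lss, lanosterol synthase, closes the rings. Lss was at 163, 155 and 164 in air, 399, 325 and 401 after 24 h, 462, 378 and 334 after 48 h and 371, 368 and 409 after 72 h in the 3 Tnfr-/- lungs of each group. For Tnfr+/+ lungs they were 177, 359 and 165 in air, 277, 302 and 337 after 24 h, 324, 354 and 517 after 48 h and 316, 343 and 386 after 72 h. In Tnfr-/- lungs the groups did not overlap, whereas the second Tnfr+/+ air lung, at 359, lay within the O3 values. Against air, Lss had log2 fold changes of 1.22, 1.27 and 1.25 in Tnfr-/- lungs (adjusted p = 0.01, 0.0032 and 0.0034) and 0.48, 0.83 and 0.67 in Tnfr+/+ lungs (adjusted p = 0.85, 0.092 and 0.12) at 24, 48 and 72 h, each with a standard error of 0.23. The probe set used for Lss is of a type that can match more than 1 transcript. With the mean over its 3 probe sets Lss passed at no time in Tnfr-/- lungs (0.89, 0.62 and 0.37, adjusted p = 0.13, 0.23 and 0.54), and in the mean of the genotypes it passed at 48 h only (0.74, 0.73 and 0.42, adjusted p = 0.064, 0.026 and 0.19).

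Fdft1, squalene synthase, commits farnesyl pyrophosphate to sterols. Fdft1 was at 526, 572 and 392 in air, 841, 669 and 627 after 24 h, 912, 800.4 and 875 after 48 h and 510.0, 559 and 554 after 72 h in the 3 Tnfr-/- lungs of each group. Values of 399, 375 and 387 in air, 430.1, 555 and 571 after 24 h, 573, 559 and 705 after 48 h and 398, 634 and 636 after 72 h were read in Tnfr+/+ lungs. The 24 and 48 h lungs of Fdft1 lay above the air lungs of their genotype, and its 72 h lungs overlapped them in both genotypes. Against air, Fdft1 had log2 fold changes of 0.53, 0.81 and 0.14 in Tnfr-/- lungs (adjusted p = 0.2, 0.016 and 0.77) and 0.41, 0.66 and 0.49 in Tnfr+/+ lungs (adjusted p = 0.8, 0.096 and 0.15) at 24, 48 and 72 h, each with a standard error of 0.18. With the mean over its 4 probe sets Fdft1 did not pass at 48 h in Tnfr-/- lungs or in the mean of the genotypes (0.51 and 0.35, adjusted p = 0.2 and 0.18). Nsdhl acts after Msmo1 in taking methyl groups off the sterol ring. Nsdhl was at 589.9, 558 and 597 in air, 699.7, 901 and 810.0 after 24 h, 841, 1037 and 903 after 48 h and 818, 749 and 711 after 72 h in the 3 Tnfr-/- lungs of each group. The Tnfr+/+ lungs had 535, 561 and 562 in air, 554, 704 and 701 after 24 h, 737, 691 and 729 after 48 h and 608, 902 and 714 after 72 h. The O3 and air lungs of Nsdhl did not overlap at 48 or 72 h in either genotype. Against air, Nsdhl had log2 fold changes of 0.46, 0.67 and 0.38 in Tnfr-/- lungs (adjusted p = 0.14, 0.0098 and 0.15) and 0.23, 0.38 and 0.40 in Tnfr+/+ lungs (adjusted p = 0.95, 0.26 and 0.13) at 24, 48 and 72 h, each with a standard error of 0.14.

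Msmo1, the methylsterol monooxygenase, varied more between air lungs in Tnfr-/- mice. Msmo1 was at 877, 501 and 342 in air, 927, 1013 and 899 after 24 h, 1069, 1096 and 568 after 48 h and 839, 699 and 658 after 72 h in the 3 Tnfr-/- lungs of each group. Tnfr+/+ lungs were at 387, 329.7 and 384 in air, 659, 792 and 497 after 24 h, 630.4, 803 and 654 after 48 h and 1185, 656 and 870.0 after 72 h. Only in Tnfr+/+ mice did the O3 and air lungs keep apart at all 3 times. Against air, Msmo1 had log2 fold changes of 0.83, 0.72 and 0.45 in Tnfr-/- lungs (adjusted p = 0.22, 0.2 and 0.47) and 0.80, 0.92 and 1.26 in Tnfr+/+ lungs (adjusted p = 0.65, 0.18 and 0.025) at 24, 48 and 72 h, each with a standard error of 0.30. The Tnfr+/+ call at 72 h ended without the lung with the high Gapdh ratio (1.04, adjusted p = 0.097). In the mean of the genotypes Msmo1 rose at 48 and 72 h, with log2 fold changes of 0.82, 0.82 and 0.86 (adjusted p-values 0.069, 0.023 and 0.013), and the call at 48 h ended without the lung rich in adipose markers (0.76, adjusted p = 0.054).

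Sc5d, the sterol C5-desaturase, was read in opposite directions by its 2 probe sets. Sc5d was at 249, 251 and 227 in air, 398, 402 and 403 after 24 h, 556, 519 and 519 after 48 h and 456, 397 and 402 after 72 h in the 3 Tnfr-/- lungs of each group. In Tnfr+/+ lungs the values were 434, 474 and 460.3 in air, 539, 469 and 548 after 24 h, 647, 737 and 492 after 48 h and 358, 603 and 632 after 72 h. On this brighter probe set the Tnfr-/- lungs rose away from their air group, which lay below every other group. Against air, Sc5d had log2 fold changes of 0.73, 1.13 and 0.79 in Tnfr-/- lungs (adjusted p = 0.048, 0.00074 and 0.014) and 0.18, 0.44 and 0.17 in Tnfr+/+ lungs (adjusted p = 1, 0.31 and 0.66) at 24, 48 and 72 h, each with a standard error of 0.17. The second, dimmer probe set had 215, 192 and 293 in air, 203, 229 and 243 after 24 h, 144, 191 and 172 after 48 h and 212, 221 and 153 after 72 h in Tnfr-/- lungs. It had 244, 247 and 199 in air, 262, 165 and 122 after 24 h, 138, 105 and 103 after 48 h and 102, 111 and 83.9 after 72 h in Tnfr+/+ lungs. Here O3 lungs were lower at 48 and 72 h, with mean log2 fold changes of -0.21, -0.73 and -0.74 (adjusted p-values 0.7, 0.011 and 0.0074), so no direction can be given for the gene as a whole.

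Hsd17b7, a 3-ketosteroid reductase, rose only at 48 h in the mean of the genotypes. Hsd17b7 was at 435, 338 and 215 in air, 522, 509 and 534 after 24 h, 609, 512 and 481 after 48 h and 376, 369.8 and 492 after 72 h in the 3 Tnfr-/- lungs of each group. For Tnfr+/+ lungs they were 316, 271 and 310.3 in air, 385, 363 and 412 after 24 h, 398, 322 and 419 after 48 h and 259, 418 and 405 after 72 h. The 24 and 48 h lungs of Hsd17b7 lay above the air lungs of their genotype, and those of 72 h overlapped them. Hsd17b7 had mean log2 fold changes of 0.55, 0.54 and 0.31 (adjusted p-values 0.093, 0.035 and 0.23). Dhcr7, which makes cholesterol from 7-dehydrocholesterol, rose at 48 h in Tnfr-/- lungs only, and the difference from Tnfr+/+ lungs did not pass (interaction 0.32, adjusted p = 0.9). Dhcr7 was at 277, 262 and 266 in air, 365, 359.9 and 372 after 24 h, 326, 385 and 387 after 48 h and 349, 298 and 309.8 after 72 h in the 3 Tnfr-/- lungs of each group. Values of 224, 272 and 294 in air, 306, 293 and 284 after 24 h, 318, 253 and 288 after 48 h and 264, 289 and 317 after 72 h were read in Tnfr+/+ lungs. The Tnfr-/- lungs in O3 were all above those in air. Against air, Dhcr7 had log2 fold changes of 0.45, 0.45 and 0.25 in Tnfr-/- lungs (adjusted p = 0.089, 0.046 and 0.31) and 0.17, 0.12 and 0.15 in Tnfr+/+ lungs (adjusted p = 0.97, 0.77 and 0.59) at 24, 48 and 72 h, each with a standard error of 0.12. Tm7sf2 and Ebp, a sterol reductase and an isomerase, passed nowhere, at 310.0 to 563 and 869.6 to 1338 over the 24 lungs, with mean log2 fold changes of -0.31, -0.14 and -0.07 (adjusted p-values 0.32, 0.56 and 0.79) for Tm7sf2 and of 0.01, 0.17 and 0.01 (adjusted p-values 0.99, 0.38 and 0.95) for Ebp.

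**Figure D2:**
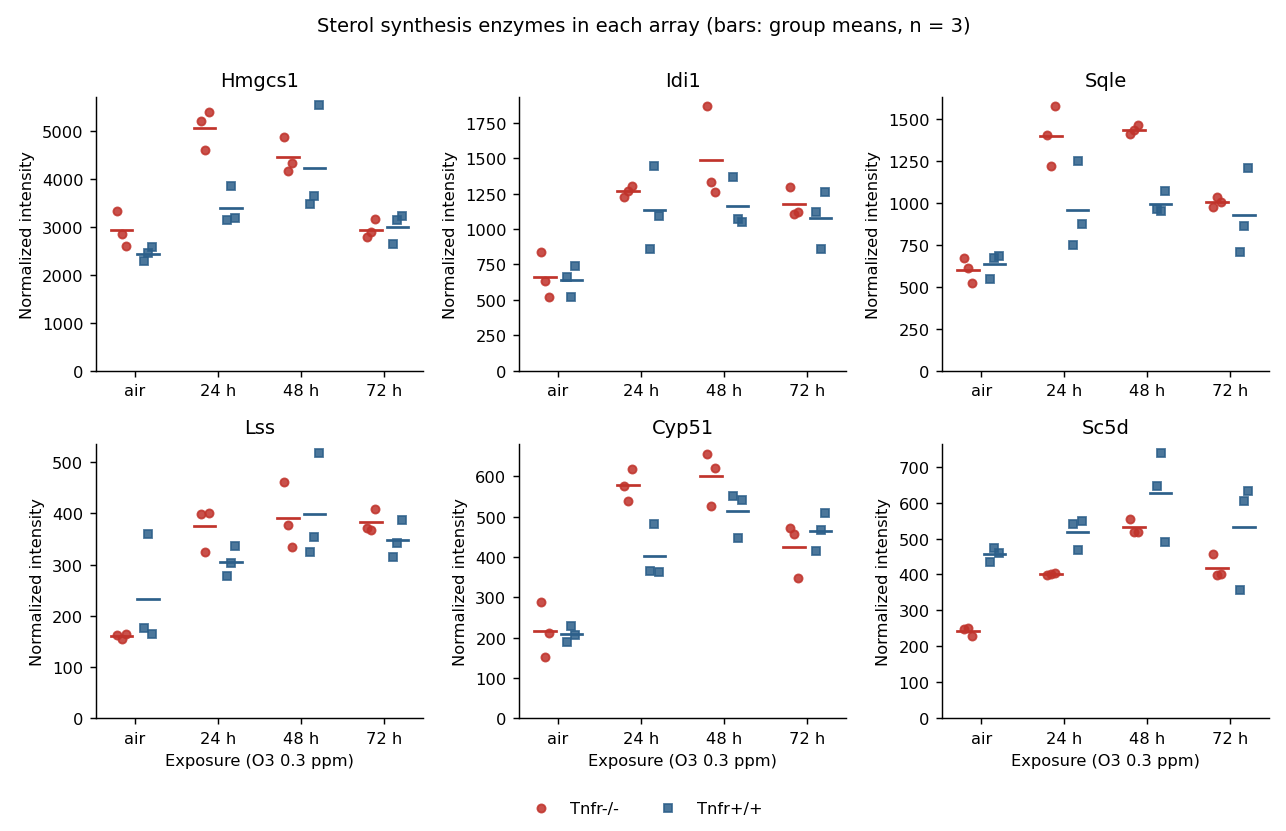
Normalized intensity of Hmgcs1, Idi1, Sqle, Lss, Cyp51 and Sc5d (vertical axes, linear from 0) in air and after 24, 48 and 72 h of O3. Each symbol is 1 lung (circles Tnfr-/-, squares Tnfr+/+) and bars are group means of 3; for Cyp51 the lowest O3 lung, at 348, lies above the highest air lung, at 288.

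Of the fatty acid enzymes, Fasn and Scd1 passed against air. Fasn, fatty acid synthase, rose at 48 and 72 h in the mean of the genotypes. Fasn was at 3687, 3289.5 and 2772 in air, 4466, 4110.0 and 4038 after 24 h, 4288, 4503 and 3759 after 48 h and 4304, 4215 and 3684 after 72 h in the 3 Tnfr-/- lungs of each group. The Tnfr+/+ lungs had 3199.9, 3503 and 3295 in air, 3443, 2987 and 4192 after 24 h, 4234, 7435 and 5551 after 48 h and 5872, 4684 and 4411 after 72 h. The highest value, 7435 at 48 h, was that of the Tnfr+/+ lung rich in adipose markers. Against air, Fasn had log2 fold changes of 0.38, 0.37 and 0.33 in Tnfr-/- lungs (adjusted p = 0.39, 0.28 and 0.36) and 0.07, 0.75 and 0.57 in Tnfr+/+ lungs (adjusted p = 1, 0.046 and 0.088) at 24, 48 and 72 h, each with a standard error of 0.18. Without that lung the Tnfr+/+ log2 fold change at 48 h was 0.54 (adjusted p = 0.2), and in the mean of the genotypes it was 0.46 (adjusted p = 0.025), against 0.56 (adjusted p = 0.0099) with it. At 72 h the mean of the genotypes was 0.45 (adjusted p = 0.027), and 0.39 (adjusted p = 0.055) without the Tnfr+/+ lung of high Gapdh ratio.

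Scd1, the stearoyl-CoA desaturase that places the first double bond, was among the brightest probe sets of the array. Scd1 was at 13364, 11684 and 9381 in air, 16056, 16844 and 16991 after 24 h, 16280.0, 16464 and 18017 after 48 h and 18017, 16595 and 16595 after 72 h in the 3 Tnfr-/- lungs of each group. Tnfr+/+ lungs were at 13779, 12932 and 13966 in air, 16733, 16844 and 16464 after 24 h, 16991, 20712 and 11300.2 after 48 h and 14534, 18515 and 18899.5 after 72 h. At 24 and 72 h all O3 lungs lay above all air lungs. Against air, Scd1 had log2 fold changes of 0.55, 0.57 and 0.59 in Tnfr-/- lungs (adjusted p = 0.14, 0.069 and 0.062) and 0.30, 0.23 and 0.34 in Tnfr+/+ lungs (adjusted p = 0.93, 0.69 and 0.31) at 24, 48 and 72 h, each with a standard error of 0.17. In the mean of the genotypes this probe set passed at 72 h only, with log2 fold changes of 0.42, 0.40 and 0.47 (adjusted p-values 0.1, 0.052 and 0.018). The other, dimmer probe set of Scd1 passed upward at 48 and 72 h, with log2 fold changes of 0.74, 1.46 and 1.13 (adjusted p-values 0.18, 0.00097 and 0.0058), so that the count of fatty acid enzymes at 48 h depends on the probe set read.

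Fads2, the delta-6 desaturase of polyunsaturated fatty acids, separated the lungs of the genotypes after O3. Fads2 was at 367, 263 and 275 in air, 421, 446 and 506 after 24 h, 513, 519.9 and 551 after 48 h and 535, 499 and 583 after 72 h in the 3 Tnfr-/- lungs of each group. In Tnfr+/+ lungs the values were 294, 363 and 272 in air, 339.8, 219 and 286 after 24 h, 359, 157 and 255 after 48 h and 241, 339 and 424 after 72 h. The genotypes overlapped in air, while after 24, 48 and 72 h every Tnfr-/- lung lay above every Tnfr+/+ lung. Against air, Fads2 had log2 fold changes of 0.61, 0.82 and 0.85 in Tnfr-/- lungs (adjusted p = 0.3, 0.074 and 0.064) and -0.15, -0.34 and 0.08 in Tnfr+/+ lungs (adjusted p = 1, 0.67 and 0.91) at 24, 48 and 72 h, each with a standard error of 0.25. None of these passed. The interaction of genotype and O3 at 48 h was 1.16 (unadjusted p = 0.0039), did not pass after adjustment (adjusted p = 0.74), and was 0.85 (unadjusted p = 0.014) without the Tnfr+/+ lung rich in adipose markers, which was lowest for Fads2 at 157.

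The other 6 fatty acid enzymes passed in no comparison with air. Acly, which cleaves citrate to acetyl-CoA, had mean log2 fold changes of 0.14, 0.18 and 0.01 (adjusted p-values 0.86, 0.65 and 0.98), and Acaca, which commits acetyl-CoA to fatty acids, 0.05, 0.20 and -0.02 (adjusted p-values 0.95, 0.54 and 0.97). Acss2 had 0.05, 0.04 and -0.09 (adjusted p-values 0.93, 0.9 and 0.72), Elovl6, an elongase, 0.10, 0.05 and 0.05 (adjusted p-values 0.92, 0.92 and 0.92), Scd2 -0.15, -0.09 and -0.25 (adjusted p-values 0.48, 0.54 and 0.053) and Fads1 0.22, 0.02 and -0.11 (adjusted p-values 0.33, 0.95 and 0.5). In the Tnfr+/+ lung of 48 h rich in adipose markers, Elovl6 was at 1033 (264 to 516 in the other 23 lungs), Acss2 at 986 (493 to 707) and Acly at 4703 (1415 to 4241). That lung had Adipoq at 3755, against 36.6 to 696 in the other 23, and Ucp1 at 416, against 4.93 to 18.5. All of these enzymes are made in fat as well as in lung. The part of adipose tissue in the Tnfr+/+ values of 48 h was not tested beyond leaving this lung out.

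**Figure D3:**
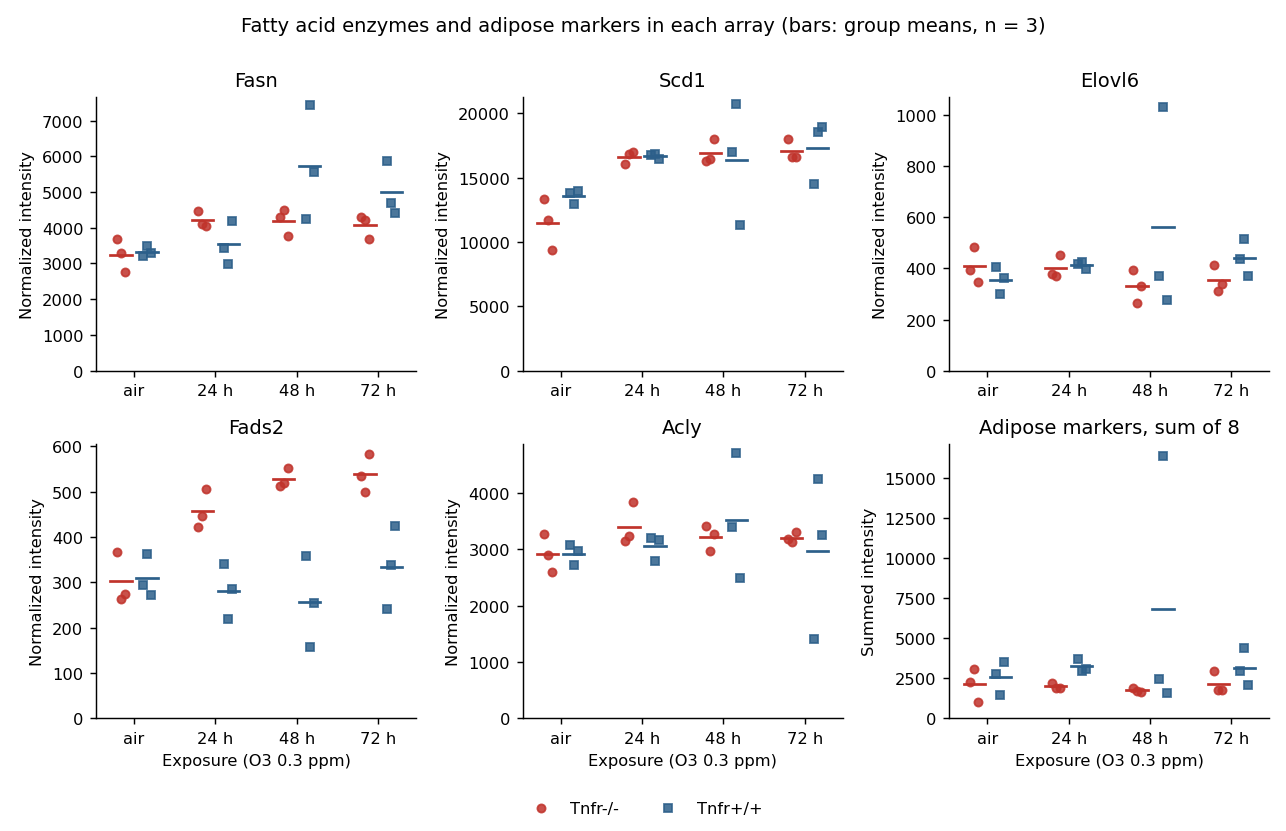
Normalized intensity of Fasn, Scd1, Elovl6, Fads2 and Acly, and the summed intensity of 8 adipose markers (vertical axes, linear from 0), in air and after 24, 48 and 72 h of O3. Each symbol is 1 lung (circles Tnfr-/-, squares Tnfr+/+) and bars are group means of 3; the Tnfr+/+ lung at 48 h with an adipose sum of 16347 is also the highest of the 24 for Fasn, Scd1, Elovl6 and Acly.

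The SREBP regulators were nearly level. Srebf2, which encodes SREBP-2, was at 709.5 to 1239 over the 24 lungs and had mean log2 fold changes of -0.06, -0.05 and -0.03 (adjusted p-values 0.91, 0.87 and 0.92). Srebf1, which encodes the SREBP-1 forms, was at 1087 to 2369, with 0.04, -0.14 and 0.05 (adjusted p-values 0.94, 0.49 and 0.82), and its highest value was in the Tnfr+/+ lung of high Gapdh ratio. Scap, the escort, had 0.09, 0.11 and 0.10 (adjusted p-values 0.9, 0.77 and 0.79). The 95% intervals at 48 h in the mean of the genotypes ran from -0.32 to 0.22 for Srebf2, -0.37 to 0.09 for Srebf1 and -0.25 to 0.47 for Scap. The activity of SREBPs is set by cleavage of the protein, which an array of RNA does not read.

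Insig2, which retains SCAP, was the only regulator to pass. Insig2 was at 683, 676 and 643 in air, 631, 545 and 499 after 24 h, 623, 594 and 807 after 48 h and 580.1, 514 and 509 after 72 h in the 3 Tnfr-/- lungs of each group. For Tnfr+/+ lungs they were 649.9, 689 and 605 in air, 582, 549 and 583 after 24 h, 639.9, 754 and 515 after 48 h and 494, 513 and 539.7 after 72 h. At 72 h all 6 O3 lungs lay below all 6 air lungs, and at 48 h the groups overlapped. Insig2 had mean log2 fold changes of -0.22, -0.02 and -0.33 (adjusted p-values 0.38, 0.94 and 0.04), and the fall at 72 h did not pass without the Tnfr+/+ lung of high Gapdh ratio (-0.31, adjusted p = 0.061) or with the mean over its 3 probe sets (-0.24, adjusted p = 0.11).

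Ch25h, whose product is 25-hydroxycholesterol, rose in every comparison with air, the only member to do so. Ch25h was at 319.8, 221 and 248 in air, 1199, 913 and 1057 after 24 h, 740.1, 616 and 705 after 48 h and 481, 385 and 508 after 72 h in the 3 Tnfr-/- lungs of each group. Values of 208, 259 and 147 in air, 449, 606 and 451 after 24 h, 676, 471 and 623 after 48 h and 639, 419.7 and 456 after 72 h were read in Tnfr+/+ lungs. No O3 lung overlapped the air lungs of its genotype, and at 24 h the Tnfr-/- lungs lay above the Tnfr+/+ lungs. Against air, Ch25h had log2 fold changes of 2.01, 1.40 and 0.81 in Tnfr-/- lungs (adjusted p = 7.8e-05, 0.00092 and 0.044) and 1.32, 1.55 and 1.32 in Tnfr+/+ lungs (adjusted p = 0.018, 0.001 and 0.0023) at 24, 48 and 72 h, each with a standard error of 0.22. The Tnfr-/- call at 72 h ended on leaving out any 1 of 15 of the 24 lungs (adjusted p up to 0.16). The Tnfr+/+ call at 24 h ended on leaving out any 1 of 4 (adjusted p up to 0.13). Its other calls against air held without each lung in turn. In Tnfr-/- lungs the level was highest at 24 h and lower at each later time, while in Tnfr+/+ lungs the 3 O3 groups overlapped. 25-hydroxycholesterol is known to hold back SREBP processing and to activate LXRs.

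The cholesterol exporters passed downward in the mean of the genotypes, Abcg1 at all 3 times and Abca1 at 48 and 72 h. ABCG1 passes cholesterol to mature HDL. Abcg1 was at 1967, 1850.5 and 2541 in air, 1111, 1249.8 and 1366 after 24 h, 1082, 1082 and 1184 after 48 h and 1307, 1352 and 1558 after 72 h in the 3 Tnfr-/- lungs of each group. The Tnfr+/+ lungs had 1767, 1875 and 2162 in air, 1664, 1401 and 1419 after 24 h, 1323, 1389 and 1442 after 48 h and 1081, 1515 and 1317 after 72 h. All Tnfr-/- O3 lungs lay below all air lungs, as did the Tnfr+/+ lungs. Against air, Abcg1 had log2 fold changes of -0.76, -0.91 and -0.58 in Tnfr-/- lungs (adjusted p = 0.01, 0.001 and 0.028) and -0.37, -0.48 and -0.58 in Tnfr+/+ lungs (adjusted p = 0.7, 0.14 and 0.034) at 24, 48 and 72 h, each with a standard error of 0.14. In the mean of the genotypes the log2 fold changes were -0.57, -0.70 and -0.58 (adjusted p-values 0.006, 0.00027 and 0.0011). The Tnfr+/+ call at 72 h ended without the lung of high Gapdh ratio (-0.45, adjusted p = 0.12).

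ABCA1 loads cholesterol onto lipid-free apolipoprotein. Abca1 was at 798, 1162 and 1215 in air, 619.5, 435 and 448 after 24 h, 493, 449.9 and 557 after 48 h and 835, 508 and 515 after 72 h in the 3 Tnfr-/- lungs of each group. Tnfr+/+ lungs were at 1231, 716 and 1409 in air, 1116, 885 and 1073 after 24 h, 939, 1134 and 682 after 48 h and 834, 692 and 593 after 72 h. In Tnfr-/- lungs the 24 and 48 h groups lay below the air group, while in Tnfr+/+ lungs each O3 group overlapped the air group. Against air, Abca1 had log2 fold changes of -1.07, -1.06 and -0.79 in Tnfr-/- lungs (adjusted p = 0.055, 0.028 and 0.11) and -0.08, -0.26 and -0.62 in Tnfr+/+ lungs (adjusted p = 1, 0.78 and 0.22) at 24, 48 and 72 h, each with a standard error of 0.26. The mean over the genotypes was -0.58, -0.66 and -0.70 (adjusted p-values 0.17, 0.036 and 0.02), and both other probe sets of Abca1 were also below 0 at all 3 times, 1 of them passing at 72 h (-0.41, adjusted p = 0.039). With the mean over its 3 probe sets Abca1 did not pass at 48 h in Tnfr-/- lungs or in the mean of the genotypes (-0.43 and -0.37, adjusted p = 0.44 and 0.28).

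Vldlr takes up triglyceride-rich lipoproteins. Vldlr was at 895, 758 and 866 in air, 408, 422 and 466 after 24 h, 466, 407 and 386 after 48 h and 588, 378 and 282 after 72 h in the 3 Tnfr-/- lungs of each group. In Tnfr+/+ lungs the values were 785, 649.7 and 951 in air, 675, 639 and 693 after 24 h, 524, 636 and 452 after 48 h and 585, 449 and 335 after 72 h. Every Tnfr-/- O3 lung lay below the Tnfr-/- air lungs, and in Tnfr+/+ lungs this held from 48 h on. Against air, Vldlr had log2 fold changes of -0.96, -1.00 and -1.08 in Tnfr-/- lungs (adjusted p = 0.047, 0.016 and 0.0098) and -0.23, -0.56 and -0.82 in Tnfr+/+ lungs (adjusted p = 1, 0.32 and 0.055) at 24, 48 and 72 h, each with a standard error of 0.23. The mean over the genotypes was -0.60, -0.78 and -0.95 (adjusted p-values 0.082, 0.005 and 0.00075). The probe set can match more than 1 transcript, a second one fell at 72 h as well (-1.16, adjusted p = 0.00077), and the remaining, dim one did not pass (0.13, adjusted p = 0.83). At 48 h neither of these passed (-0.58 and -0.13, adjusted p = 0.085 and 0.84). With the mean over the 3 probe sets Vldlr did not pass at 24 or 48 h in Tnfr-/- lungs (-0.59 and -0.68, adjusted p = 0.25 and 0.1) or at 48 h in the mean of the genotypes (-0.50, adjusted p = 0.068). Nr1h3, which encodes LXRα, had mean log2 fold changes of -0.17, -0.17 and -0.0013 (adjusted p-values 0.67, 0.45 and 1), and Stard4, a carrier of cholesterol in the cytosol, 0.14, 0.19 and -0.01 (adjusted p-values 0.82, 0.54 and 0.99).

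**Figure D4:**
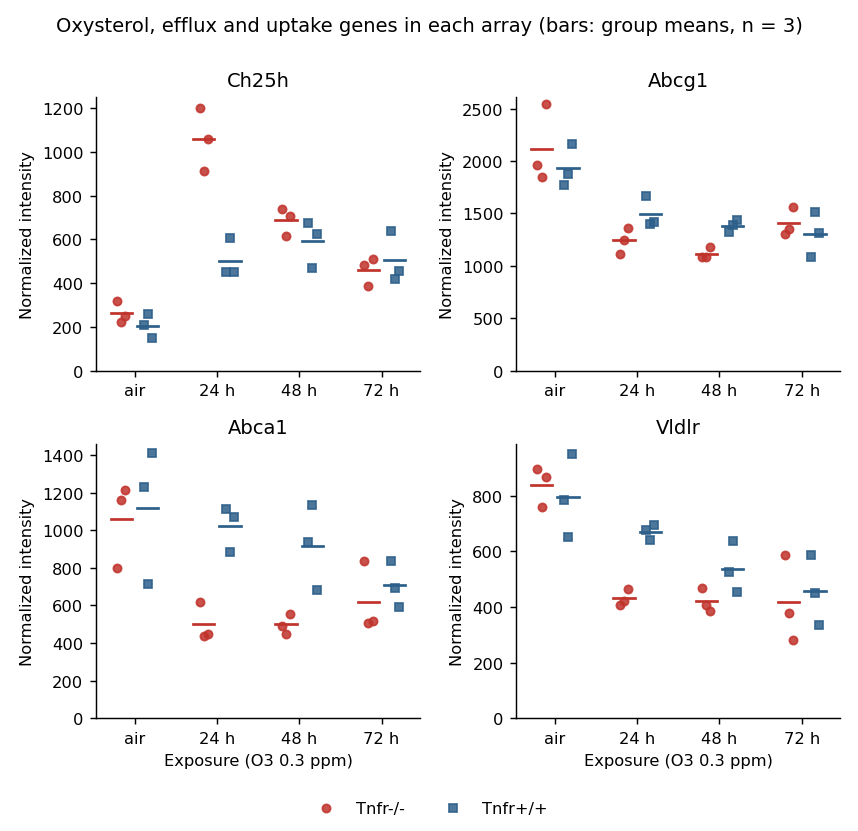
Normalized intensity of Ch25h, Abcg1, Abca1 and Vldlr (vertical axes, linear from 0) in air and after 24, 48 and 72 h of O3. Each symbol is 1 lung (circles Tnfr-/-, squares Tnfr+/+) and bars are group means of 3; Ch25h reaches 913 to 1199 in Tnfr-/- lungs and 449 to 606 in Tnfr+/+ lungs at 24 h, while Abcg1 is below its air groups throughout.

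Between exposure times no member passed. For 48 h against 24 h 0 of 36 members passed, when 0.813% of all probe sets did. For 72 h against 48 h 0 passed (0.0390% of all). At an unadjusted p under 0.05, 2 members were higher and 1 lower at 48 h than at 24 h, and 0 were higher and 7 lower at 72 h than at 48 h. No share of all probe sets is given at that threshold, so these counts are not read as a result about the members. The sterol enzymes had a median log2 fold change of 0.18 for 48 h against 24 h and of -0.24 for 72 h against 48 h, with 15 and 3 of the 17 above 0. Here too the share of all probe sets above 0 is not given. Hmgcs1 had the smallest adjusted p of the members, with a log2 fold change of -0.53 for 72 h against 48 h (standard error 0.11, adjusted p = 0.11), and its 72 h lungs, at 2646 to 3215, lay below all its 48 h lungs, at 3478 to 5544.

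The genotypes were compared within each exposure and over all 4. In air 0 of 36 members passed (0.0876% of all probe sets in either direction), with 0 higher and 1 lower in Tnfr-/- lungs at an unadjusted p under 0.05. At 24 h of O3 1 was higher, Ch25h, and 0 were lower (0.584% and 0.419% of all), with 8 higher and 3 lower at the unadjusted p. At 48 h 0 passed (0.166% of all), with 7 and 3 at the unadjusted p, and at 72 h 0 passed (0.161%), with 1 and 2. The counts at the unadjusted p have no share of all probe sets beside them and are not read as a result about the members. Over the 4 exposures 4 members were higher and 2 lower in Tnfr-/- lungs, when 3.17% of all probe sets were higher and 2.47% lower.

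Ch25h was higher in Tnfr-/- lungs at 24 h by 1.08 on the log2 scale (standard error 0.22, adjusted p = 0.022), or 2.11 times Tnfr+/+. This call ended on leaving out any 1 of 5 lungs (adjusted p up to 0.099). It also ended with only the lungs of the comparison in the fit, and with an ordinary t-test on those lungs after adjustment. For genotype under O3 the paper used a 2-way ANOVA, which was not run here, and listed Ch25h as different at 24 h. Over the 4 exposures Ch25h differed by 0.39 (standard error 0.11, adjusted p = 0.042). Fads2 differed by 0.63 (standard error 0.12, adjusted p = 0.0076), Fdft1 by 0.32 (standard error 0.09, adjusted p = 0.045) and Dhcr7 by 0.21 (standard error 0.06, adjusted p = 0.048). The lower members were Abca1, at -0.54 (standard error 0.13, adjusted p = 0.023), and Sc5d, at -0.45 (standard error 0.09, adjusted p = 0.0067). The probe set bore on 4 of these. The second probe set of Sc5d was higher in Tnfr-/- lungs (0.47, adjusted p = 0.024), and the other 2 of Abca1 had 0.16 and 0.63 (adjusted p = 0.29 and 0.3). The other 3 of Fdft1 had 0.02, 0.0050 and -0.08 (adjusted p = 0.92, 0.99 and 0.93). For Fads2 a second probe set of nearly the same brightness, at a mean of 355 against 357, had 0.28 (adjusted p = 0.25), and the mean of both passed (0.46, adjusted p = 0.018). Over the 4 exposures the calls of Ch25h, Fdft1 and Dhcr7 were near the threshold: they ended on leaving out any 1 of 16, 17 and 20 of the 24 lungs. Among these were the Tnfr+/+ lung rich in adipose markers for all 3 (0.35, 0.31 and 0.19, adjusted p = 0.069, 0.071 and 0.078) and the lung of high Gapdh ratio for Fdft1 and Dhcr7 (0.27 and 0.19, adjusted p = 0.054 and 0.066).

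The change with O3 was not shown to differ between the genotypes for any member. Interactions of genotype and O3 passed for 0 of 36 members at 24, 48 and 72 h, when 0.00974%, 0% and 0.00487% of all probe sets did. No share of all probe sets is given for an unadjusted p under 0.05. At that threshold the interaction was positive for 5, 3 and 2 members and negative for 2 at each time. At 24 h these were Sqle (0.64, adjusted p = 0.72), Lss (0.74, 0.77), Sc5d (0.55, 0.77), Fads2 (0.76, 0.78) and Ch25h (0.70, 0.77) above 0, and Abca1 (-1.00, 0.67) and Vldlr (-0.72, 0.77) below 0. The log2 fold changes of Abca1 and Vldlr were further below 0 in Tnfr-/- lungs. The 95% interval of the interaction of Cyp51 at 24 h ran from -0.05 to 1.09. The counts of calls in the 2 genotypes thus differ without a passed test of the difference.

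**Figure D5:**
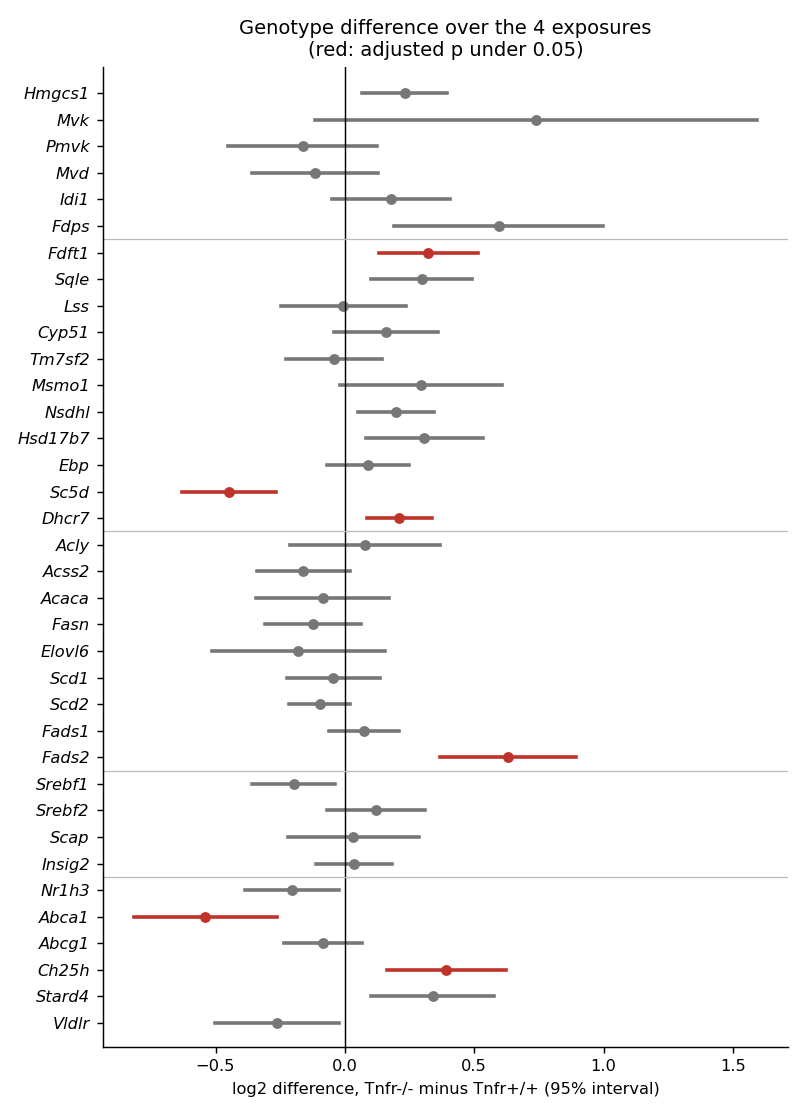
log2 difference of Tnfr-/- minus Tnfr+/+ lungs averaged over air and 24, 48 and 72 h of O3 (horizontal axis) for the 36 members (rows, by role), with 95% intervals of the fit; 12 lungs per genotype. Red marks an adjusted p under 0.05; Fads2 lies highest of the red points at 0.63 and Abca1 lowest at -0.54.

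Other lipid genes were counted beside the members. Of 15 measured genes of lipid synthesis and handling outside the list, 1 rose and 1 fell at 24 h, 5 rose and 2 fell at 48 h and 2 rose and 4 fell at 72 h in the mean of the genotypes, with median log2 fold changes of -0.10, 0.06 and -0.14. Of all probe sets, 0.945%, 4.39% and 5.63% rose and 0.336%, 2.93% and 5.05% fell at the 3 times. Lpcat3, which puts polyunsaturated chains into phospholipids and is an LXR target, rose at 48 h (0.49, adjusted p = 0.021), and Elovl1, an elongase of long saturated chains, rose at 24 and 48 h (0.47 and 0.51, adjusted p = 0.042 and 0.0079). Me1, the malic enzyme that supplies NADPH, rose at 48 and 72 h (0.52 and 0.50, adjusted p = 0.049 and 0.047), as did Npc2, which carries cholesterol out of lysosomes (0.32 and 0.28, adjusted p = 0.012 and 0.024). Mylip, the LXR-induced ubiquitin ligase of lipoprotein receptors, fell at all 3 times (-0.46, -0.42 and -0.61, adjusted p = 0.05 to rounding at 24 h, then 0.026 and 0.0013). Gpam, which begins triglyceride synthesis, fell at 48 and 72 h (-0.36 and -0.29, adjusted p = 0.0097 and 0.028). Fabp5, a fatty acid carrier, rose at 48 h (0.38, adjusted p = 0.027), and Lpin1 and Mbtps1, a phosphatidate phosphatase and the protease that first cuts SREBPs, fell at 72 h (-0.48 and -0.28, adjusted p = 0.026 and 0.027). Of 10 fatty acid oxidation genes 0 rose, and Ppara, their nuclear receptor, fell at 48 and 72 h (-1.10 and -1.39, adjusted p = 0.049 and 0.01).

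Markers of other cells and of division moved in the same lungs. In the mean of the genotypes 0.945%, 4.39% and 5.63% of all probe sets rose at 24, 48 and 72 h. The share that fell was 0.336%, 2.93% and 5.05%. Of 8 alveolar macrophage markers measured, 1, 6 and 6 rose at 24, 48 and 72 h in the mean of the genotypes and 0 fell. Their summed intensity was 8724 to 10220 in air, 12610 to 15773 after 24 h, 18939 to 20868 after 48 h and 16627 to 17448 after 72 h in Tnfr-/- lungs. In Tnfr+/+ lungs it was 7501 to 11166, 10258 to 11128, 13545 to 30504 and 14916 to 18753, the highest being the lung rich in adipose markers (Fabp4, on the list, is also an adipocyte gene). Chil3 alone made up most of the Tnfr-/- sums, at 5279 to 5591 in air and 12354 to 14370 after 48 h. The sum therefore follows that gene more than the other markers and is no measure of the number of macrophages. Of 9 cell division genes, 0, 9 and 9 rose at the 3 times, with medians of 0.26, 1.39 and 2.18, so that their change was larger at 72 h than at 48 h while that of the sterol enzymes was 0.42 and 0.73. The lowest value of a macrophage marker was 115, for Marco, which is below the medians of the deposited arrays, 213 to 247. No detection calls were used. The summed intensity of 11 liver markers was 1044 to 1476 in air, 861 to 1342 after 24 h, 1049 to 1144 after 48 h and 1084 to 1585 after 72 h in Tnfr-/- lungs. In Tnfr+/+ lungs the sum was higher in air, at 2154 to 3368, than in the O3 lungs, at 1678 to 1705 after 24 h, 1533 to 4059 after 48 h and 1118 to 1646 after 72 h, apart from the value of 4059. That value was from the lung rich in adipose markers, where Cyp2e1 alone was at 3226. The Tnfr+/+ comparisons with air all use those air lungs. The part of these cells in the members' changes was not tested.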

How the data were processed

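The deposited values were intensities on a linear scale, 1 per probe set and array, which the authors obtained from MAS5 (Affymetrix Expression Console), all scaled to a common trimmed mean. A file of this kind keeps no read depth, so the number of arrays limits the precision. Quantile normalization of the 22644 probe sets across the 24 arrays was followed by a floor of 1 and log2. The 64 control probe sets were left out, and the 20537 above the 20th percentile in at least 1 array were tested. limma (version 3.58.1, R 4.3.3) was fitted to the 8 groups with 16 residual degrees of freedom, and p-values were adjusted by Benjamini and Hochberg over all probe sets within each of 19 comparisons. Gene names came from the platform's annotation, and a gene was read by the probe set with the highest mean intensity. The script was tested on simulated data. The members, gene lists and comparisons were chosen with earlier results of these data known. All 36 measured members are described, and those with a call in full. Samples were taken as separate mice, in which case p-values cover the spread between mice handled as the labels state. Same-numbered lungs of different groups did not deviate together, so the replicate number was not used as a block. Other normalizations, filters, probe set rules, weights, an ordinary t-test and leaving out each array were tried.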

Additional observations from a re-analysis of the deposited data

How the results depend on the processing

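Counts of members passing the test are given here, in Tnfr+/+ lungs at 24, 48 and 72 h, then in Tnfr-/- lungs at the same times. The share of all probe sets under each setting is not set beside the counts in this section. A larger count is therefore not a result about the members. The full fit gave 1, 4 and 4, then 9, 13 and 8. Array quality weights gave 2, 7 and 9 in Tnfr+/+ lungs, 15 in Tnfr-/- lungs at 24 h and 17, against 7, in the mean of the genotypes at 24 h. With the arrays of a comparison alone the counts were 0, 0 and 0, then 1, 8 and 1, and 0 for the genotypes at 24 h. An ordinary t-test gave 0, 0 and 0, then 0, 2 and 1 after adjustment, and 5 and 7 in Tnfr+/+ lungs at 24 and 48 h before it. The paper's legends name a moderated t-test, so these counts do not repeat its test. limma at unadjusted thresholds gave 5, 10 and 9, then 16 in Tnfr-/- lungs at 24 h, and 16 in the mean of the genotypes at 24 h. The mean of a gene's probe sets gave 5 in Tnfr-/- lungs at 24 h and 2, against 1, between genotypes at 24 h.

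Between genotypes, where over all exposures only Sc5d, Fads2 and Abca1 passed without each lung in turn, the full fit gave 0, 1, 0 and 0 in air and at 24, 48 and 72 h, and 6 over all exposures. In air 1 passed with cyclic loess, a floor of 32, weights, the t-test or limma unadjusted. At 24 h weights gave 3 and both unadjusted tests 11. At 48 h weights gave 1 and both unadjusted tests 10. At 72 h they gave 2 for the t-test and 3 for limma, and over all exposures limma unadjusted gave 15. For 48 h against 24 h weights gave 1, against 0.

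With a replicate block the counts were 1, 3 and 4, then 8, 12 and 8, and 8, 14 and 14 in the mean of the genotypes, with 4 between genotypes over all exposures. Leaving out 1 lung gave 0 to 2, 2 to 5 and 2 to 5 in Tnfr+/+ lungs, 3 to 11, 8 to 17 and 3 to 11 in Tnfr-/- lungs, and 7 to 13, 12 to 20 and 10 to 16 in the mean. Between genotypes it gave 0 to 1, 0 to 2, 0 to 2 and 0 to 0, and 3 to 7 over all exposures. Interactions and time steps stayed at 0 to 0. With the mean of a gene's probe sets, 3 values changed sign: Sc5d at 72 h (-0.13, adjusted p = 0.51) and the genotype differences of Sc5d (0.012, 0.95) and Abca1 (0.083, 0.77). The cause was not tested. Of the 85 calls of single members, cyclic loess kept 81, a floor of 32 kept 83, deposited intensities without normalization 80, no filter 77 and the mean of probe sets 59.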
